A study of Mus musculus with 6 samples.

Results

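The genes described here are heat shock proteins and their helpers, 37 genes taken from a fixed list of symbols, and each was looked up in a table of 45777 genes from mouse heart. All 37 were in the table and all reached a mean of 10 counts over the libraries, so none was left out, and 18328 genes of the table reached that minimum and were tested. The hearts came from female BALB/c nude mice (CAnN.Cg-Foxn1nu/Crl), which lack a thymus and so lack normal T cells. The mice were 6 weeks old at the start of the experiment. Every mouse, Control included, carried a subcutaneous xenograft of MDA-MB-231, a human triple-negative breast cancer cell line. Treatment ran for 3 weeks from day 7 after the tumour cells were placed. Doxorubicin (Dox), an anthracycline with known cardiac toxicity, was given at 2 mg/kg every other day to a cumulative 22 mg/kg. Rh2, a ginsenoside of ginseng, was given every day at 20 or 30 mg/kg. The 6 conditions were Control (vehicle), Rh2 at 20 mg/kg (Rh2-20), Rh2 at 30 mg/kg (Rh2-30), Dox, and each Rh2 dose together with Dox (Rh2-20 + Dox and Rh2-30 + Dox). Each condition was a single library pooled from 5 hearts, so no condition had a second library and the spread between hearts cannot be seen. The comparisons ask which chaperone genes differed with Dox, which differed with Rh2, and whether the Dox difference was another one when Rh2 was present.

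Chaperones bind proteins that are unfolded or unfinished and let them reach or regain their shape. HSP70 proteins hold short stretches of a client in an ATP cycle that J-domain proteins start and that HSP110 proteins and BAG proteins end by releasing the nucleotide. HSP90 with its co-chaperones takes over near-folded clients such as kinases and steroid receptors, the barrel-shaped chaperonins enclose a chain while it folds, and small heat shock proteins, abundant in heart muscle, keep unfolded chains from clumping. When unfolded proteins build up, heat shock factor HSF1 binds heat shock elements in DNA, arrays of the unit GAA and its reverse complement, and switches on the inducible members, while stress in the endoplasmic reticulum acts through a different element on the chaperones of that compartment.

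Promoter windows, from 250 bases before a gene's start to 50 bases after it, were taken from RefSeq (GRCm38.p6, the assembly of mm10) and were on hand for 31 of the 37 genes. They are shown for the genes whose values carry the results below, the inducible pair Hspa1a and Hspa1b, the genes Hsph1 and Chordc1 that were high in the Rh2-30 and Dox libraries, Hspe1 of the mitochondrial chaperonin, and Hspa5 of the endoplasmic reticulum. Each reads 5′ to 3′ on the strand of its gene. Capitals mark a heat shock element of 2 units (GAANNTTC or TTCNNGAA) in Hspa1a and Hspa1b, a heat shock element of 3 units (GAANNTTCNNGAA on either strand) in Hsph1, Chordc1 and Hspe1, and the endoplasmic reticulum stress element (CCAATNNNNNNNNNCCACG on either strand) in Hspa5. The windows are chr17:34972107-34972406 on the minus strand for Hspa1a, chr17:34959189-34959488 on the minus strand for Hspa1b, chr5:149636287-149636586 on the minus strand for Hsph1, chr9:18292017-18292316 on the plus strand for Chordc1, chr1:55087898-55088197 on the plus strand for Hspe1 and chr2:34771840-34772139 on the plus strand for Hspa5.
Hspa1a: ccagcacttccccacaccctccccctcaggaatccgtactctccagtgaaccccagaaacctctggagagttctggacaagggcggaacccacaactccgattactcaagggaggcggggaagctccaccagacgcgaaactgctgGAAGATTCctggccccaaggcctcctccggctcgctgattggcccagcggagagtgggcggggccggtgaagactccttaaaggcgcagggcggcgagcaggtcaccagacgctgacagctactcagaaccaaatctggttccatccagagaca
Hspa1b: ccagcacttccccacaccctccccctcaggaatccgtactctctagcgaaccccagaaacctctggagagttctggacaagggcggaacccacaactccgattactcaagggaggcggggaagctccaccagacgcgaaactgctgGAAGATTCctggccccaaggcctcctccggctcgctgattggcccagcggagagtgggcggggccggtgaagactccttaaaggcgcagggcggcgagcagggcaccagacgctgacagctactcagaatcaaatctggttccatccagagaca
Hsph1: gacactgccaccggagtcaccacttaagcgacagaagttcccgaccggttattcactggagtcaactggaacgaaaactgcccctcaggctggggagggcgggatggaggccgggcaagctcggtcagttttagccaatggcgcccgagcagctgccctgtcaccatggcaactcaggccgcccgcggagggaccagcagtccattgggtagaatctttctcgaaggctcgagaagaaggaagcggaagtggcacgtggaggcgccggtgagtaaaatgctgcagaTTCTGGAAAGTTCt
Chordc1: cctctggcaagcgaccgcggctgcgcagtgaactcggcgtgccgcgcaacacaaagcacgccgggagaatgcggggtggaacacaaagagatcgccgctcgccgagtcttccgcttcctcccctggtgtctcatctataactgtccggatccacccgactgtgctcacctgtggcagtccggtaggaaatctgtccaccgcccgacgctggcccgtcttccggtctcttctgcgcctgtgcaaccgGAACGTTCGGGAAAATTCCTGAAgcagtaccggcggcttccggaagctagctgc
Hspe1: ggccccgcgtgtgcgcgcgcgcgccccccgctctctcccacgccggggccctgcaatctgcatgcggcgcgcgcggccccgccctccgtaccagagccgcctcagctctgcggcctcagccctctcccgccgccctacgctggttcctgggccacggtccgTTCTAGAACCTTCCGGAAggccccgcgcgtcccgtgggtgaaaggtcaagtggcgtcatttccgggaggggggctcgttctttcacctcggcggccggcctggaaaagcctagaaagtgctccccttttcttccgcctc
Hspa5: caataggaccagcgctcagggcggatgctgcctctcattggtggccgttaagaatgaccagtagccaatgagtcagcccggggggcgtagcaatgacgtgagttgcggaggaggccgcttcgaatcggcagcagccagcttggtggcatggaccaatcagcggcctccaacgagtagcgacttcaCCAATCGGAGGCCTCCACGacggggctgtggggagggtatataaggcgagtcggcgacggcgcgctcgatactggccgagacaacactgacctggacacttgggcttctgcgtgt

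The windows of Hspa1a and Hspa1b were the same at 296 of 300 positions, and both held the 2-unit element 104 bases before the start. The 3-unit element was in a window of 4 members, Chordc1, Hspd1, Hspe1 and Hsph1, and in 0.603% of the 32851 windows in the RefSeq set. A 2-unit element in either form was in a window of 15 of the 31 members and in 15.1% of all windows, and every window with the 3-unit element counts here too because the longer element contains the shorter one. The endoplasmic reticulum element was in Hspa5 and Hsp90b1, the luminal HSP70 and HSP90, and in 0.119% of all windows. A match of letters is a description of the window and not evidence of binding. Hspd1 and Hspe1 lie side by side on opposite strands with overlapping windows, and the marked letters of Hspe1 are the ones found in the window of Hspd1. They also lie within the bounds of the Hspd1 gene (chr1:55077833-55088243).

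Library totals were 86164411 to 90621002 counts. Cardiomyocyte markers (8 of 8 genes found) summed to 85900 to 116100 normalised read counts scaled to a common library size (CPM, by the TMM method) and skeletal muscle markers to 1.90 to 3.54. The libraries were not alike in tissue outside the ventricular muscle. The 4 atrial markers (Myl7, Sln, Myl4 and Nppa) summed to 1662 CPM in Rh2-30, 379 in Dox, 403 in Rh2-20 + Dox and 45.7 to 75.3 in the other 3 libraries, and Sln was at 0 counts in Rh2-30 + Dox. The 4 white fat markers (Adipoq, Plin1, Lep and Cfd) summed to 193 CPM in Rh2-30, 35.5 in Dox and 0.345 to 18.6 elsewhere. The brown fat gene Ucp1 had 6442 counts in Rh2-30 and 0 to 12 in each other library, and red cell markers ran from 1657 CPM in Rh2-30 + Dox to 10500 in Dox. The Rh2-30 library therefore stood apart, and fitted values of several members are also given without it. Most values of single libraries, the class medians and the lists of genes that are not members are given only with it. In pooled tissue, fewer cells of a type and less RNA per cell cannot be told apart.

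Per length of transcript, constitutive forms stood highest among the chaperone genes. The RNA was captured with probes, and the part of capture in differences between genes was not tested. In FPKM, a read measure corrected for transcript length and library depth, Hspa8, the constitutive cytosolic HSP70, stood at 554 ± 40.3 (mean ± SD over the 6 libraries, here and for the FPKM values that follow). Hsp90ab1, the constitutive cytosolic HSP90, followed at 164 ± 15.4 and Hspa9, the mitochondrial HSP70, at 154 ± 23.7, and these neighbours in the order did not differ beyond their spread. Hspb1 (HSP27) was at 115.5 ± 8.39, Hspd1 (HSP60) at 109 ± 15.6 and Hsp90b1, the HSP90 of the endoplasmic reticulum, at 108 ± 11.99, again within each other's spread. The HSP70 family held 46.7% of the summed FPKM of the members on average and the HSP90 family with its co-chaperones 22.9%, while the 6 small heat shock proteins held 12.2%. At the low end were Hspa2 at 2.97 ± 0.558 and Hspa12a at 2.03 ± 0.255, an HSP70 best known from testis and a divergent HSP70 relative. All 37 genes together took 0.567% to 0.712% of the counts of a library, least in Control and most in Rh2-30.

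**Figure D1:**
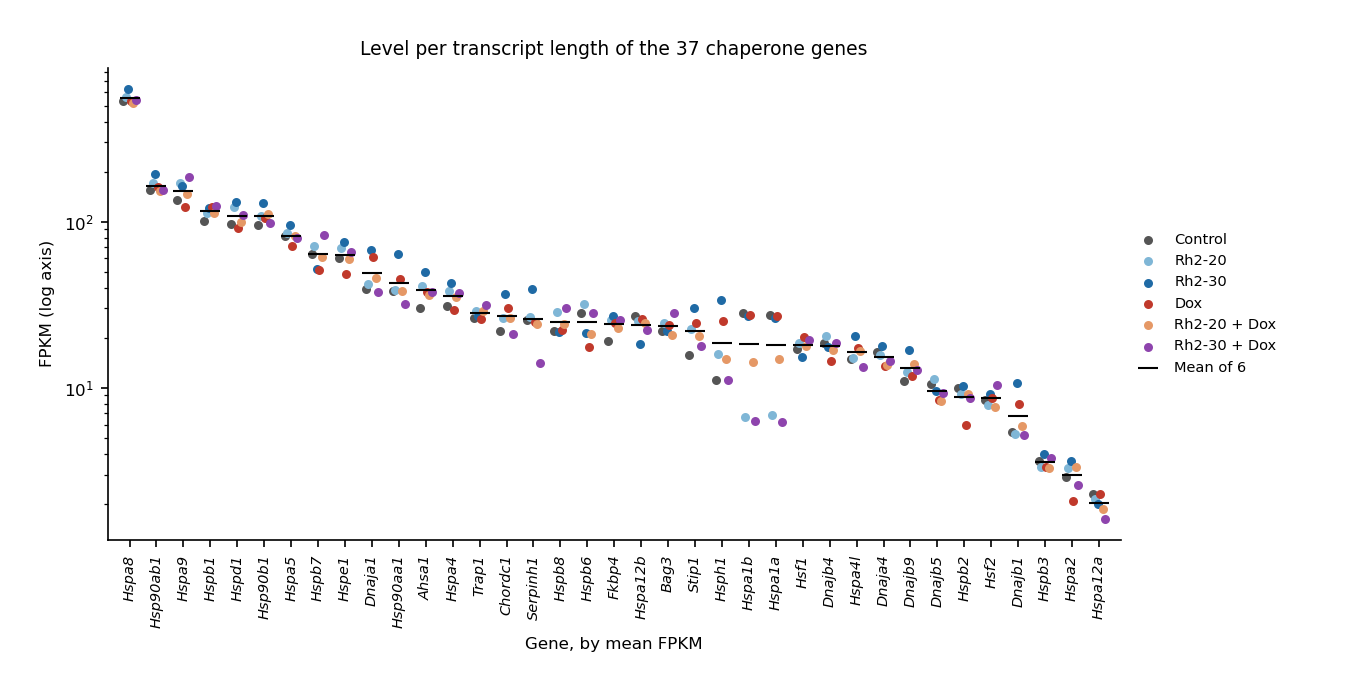
FPKM (log axis) of the 37 genes in each of the 6 libraries, 1 coloured point per library and a black bar at the mean of the 6, ordered by mean. Hspa8 lies above all other members, and the points of Hspa1a, Hspa1b, Hsph1 and Serpinh1 are the most spread out.

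The highest library stood above the lowest by less than 1.5-fold in 21 members, by 1.5-fold to 2-fold in 12 and by over 2-fold in 4 (Hspa1a, Hspa1b, Hsph1 and Serpinh1). The median of this ratio was 1.43 over the members and 1.37 over the 11787 genes that were at least as abundant as the lowest member. Against Control, members at a fold of at least 2 were 2 of 37 in Rh2-20 (6.15% of all tested genes passed), 1 in Rh2-30 (10.1% of all), 1 in Dox (9.02% of all), 1 in Rh2-20 + Dox (8.75% of all) and 2 in Rh2-30 + Dox (10.9% of all). The share of members was 5.41% where 2 passed and 2.7% where 1 did, below the share of all genes each time. Many of the genes that passed had low counts, and of the 11787 genes at least as abundant as the lowest member 0.475% passed in Rh2-20, 2.6% in Rh2-30, 2.11% in Dox, 2.05% in Rh2-20 + Dox and 3.28% in Rh2-30 + Dox. The 5 comparisons share the Control library. As there was 1 library per condition, these folds have no replicate check and no p-value. Intervals given with them are 95% intervals of the pair of counts and cover counting error only. With the common dispersion of all libraries (0.0864) added, the interval of a gene with many counts reaches 1.18 to either side on the log2 scale.

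**Figure D2:**
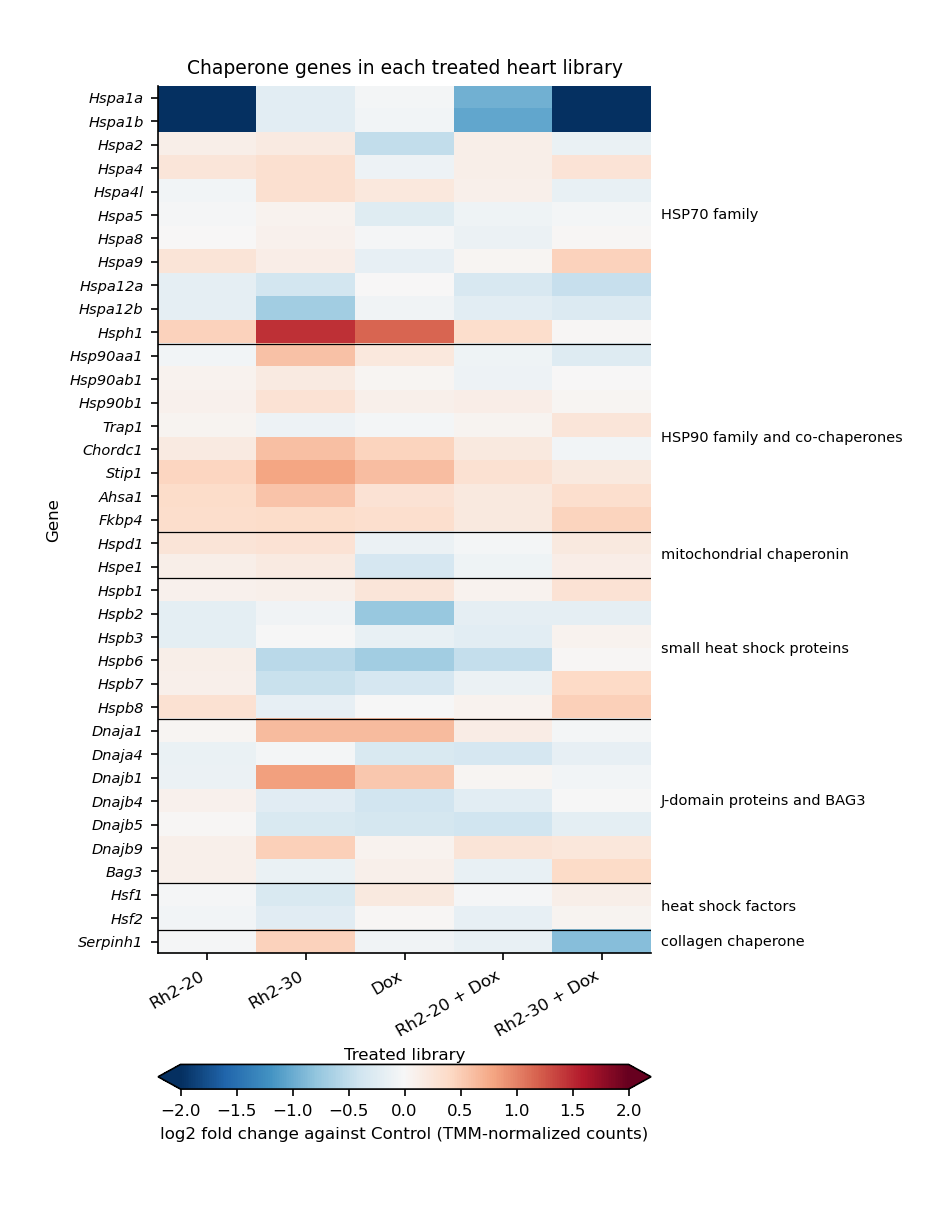
Log2 fold change of TMM-normalized counts against Control for the 37 genes (rows, grouped by class) in the 5 treated libraries (columns), with blue for lower and red for higher than Control. Hspa1a and Hspa1b are lower in Rh2-20, Rh2-20 + Dox and Rh2-30 + Dox, and Hsph1 is highest in Rh2-30 and Dox.

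Hspa1a and Hspa1b, the stress-inducible cytosolic HSP70 genes, varied more than any other member and were low in 3 libraries, each of which had received Rh2. Hspa1a was at 104 CPM in Control, 24.5 in Rh2-20, 89.7 in Rh2-30, 100.5 in Dox, 53.4 in Rh2-20 + Dox and 23.6 in Rh2-30 + Dox. Hspa1b was at 106.5 in Control, 24.1 in Rh2-20, 92.1 in Rh2-30, 103 in Dox, 51.7 in Rh2-20 + Dox and 23.9 in Rh2-30 + Dox. Control, Dox and Rh2-30 formed a high set, Rh2-20 and Rh2-30 + Dox a low set, and Rh2-20 + Dox lay between them. Neither the Rh2 dose nor Dox sorted the libraries, as each Rh2 dose had 1 library in which the genes were low and 1 in which they were higher. Against Control, Hspa1a was lower by a log2 value of -2.08 (-2.15 to -2.01) in Rh2-20, and -2.13 (-2.20 to -2.06) in Rh2-30 + Dox. The log2 difference from Control was -0.04 (-0.09 to 0.00) in Dox, -0.21 in Rh2-30 and -0.95 in Rh2-20 + Dox. Hspa1b gave -2.14 in Rh2-20, -2.15 in Rh2-30 + Dox and -1.04 in Rh2-20 + Dox.

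The genes lie close together on chromosome 17, Hspa1a at chr17:34969359-34972156 and Hspa1b at chr17:34956429-34959238, both on the minus strand. Of the 100-base stretches of the Hspa1a transcript, 47.1% occurred unchanged in the Hspa1b transcript, so reads could be split between the genes by the authors' counting, and the ratio of their counts was 0.972 to 1.03 in every library. Their sum does not depend on that split, and it was 17501 counts in Control, 4377 in Rh2-20, 17240 in Rh2-30, 17100 in Dox, 9635 in Rh2-20 + Dox and 4132 in Rh2-30 + Dox. The sum was lower than Control by a log2 value of -2.11 in Rh2-20 and -2.14 in Rh2-30 + Dox. Set against the constitutive gene per length, the summed FPKM of the pair was 10.4% of that of Hspa8 in Control, 10.3% in Dox, 8.44% in Rh2-30, 5.65% in Rh2-20 + Dox, 2.39% in Rh2-20 and 2.30% in Rh2-30 + Dox. Of the 11787 genes at least as abundant as the lowest member, 1.92% had a highest-to-lowest ratio of at least that of Hspa1a (4.39). The red cell marker sum was also lowest in Rh2-30 + Dox (1657 CPM) and Rh2-20 (2603 CPM). It was 3600 CPM in Control, 3281 in Rh2-30, 5896 in Rh2-20 + Dox and 10500 in Dox, so the order of the other libraries differed from that of the pair. Its part in the result was not tested. In the GENCODE annotation an exon of Hspa1a overlaps the gene Gm20481 on the other strand, and no exon of Hspa1b overlaps another gene.

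Within a dose of Rh2, the pair went in opposite ways when Dox was added. From Rh2-20 to Rh2-20 + Dox, Hspa1a was higher by a log2 value of 1.13 (1.05 to 1.20) and Hspa1b by 1.10, the 2 members at a fold of at least 2 there (6.96% of all tested genes). From Rh2-30 to Rh2-30 + Dox, Hspa1a differed by -1.93 and Hspa1b by -1.94, and Hsph1 and Serpinh1 made up the 4 members past that fold (14.5% of all). Against Dox alone, no member passed the fold in Rh2-20 + Dox (6.51% of all), while 3 did in Rh2-30 + Dox (10.1% of all), namely Hspa1a at -2.09, Hspa1b at -2.10 and Hsph1 at -1.14. The shares among the 11787 genes at least as abundant as the lowest member were smaller. They were 1.42% from Rh2-20 to Rh2-20 + Dox (5.41% of members) and 5.57% from Rh2-30 to Rh2-30 + Dox (10.8% of members). Against Dox alone they were 0.933% in Rh2-20 + Dox (0% of members) and 3.12% in Rh2-30 + Dox (8.11% of members). Pairs of comparisons that use the same library are not independent of each other.

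Another set of members was highest in the Rh2-30 and Dox libraries. In 7 of 37 members these were the 2 highest libraries (7.77% of all tested genes), and they were the HSP110 genes Hsph1 and Hspa4l, the J-domain genes Dnaja1 and Dnajb1, and Hsp90aa1, Stip1 and Chordc1 of the HSP90 system. With the Rh2-30 library left out, Dox was the highest of the other 5 libraries in 9 members (23.5% of all tested genes), a share near that of all genes. Hsph1, whose protein HSP105 frees the nucleotide from HSP70, was at 51.9 CPM in Control, 71.5 in Rh2-20, 143 in Rh2-30, 116.8 in Dox, 66.6 in Rh2-20 + Dox and 53.0 in Rh2-30 + Dox. It was the member past the fold of 2 against Control in Rh2-30, at a log2 value of 1.46 (1.41 to 1.51), and in Dox, at 1.17 (1.12 to 1.22). Each Rh2 + Dox library was within 0.36 of Control on that scale. With the common dispersion added, the interval of the Dox value was -0.01 to 2.35.

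**Figure D3:**
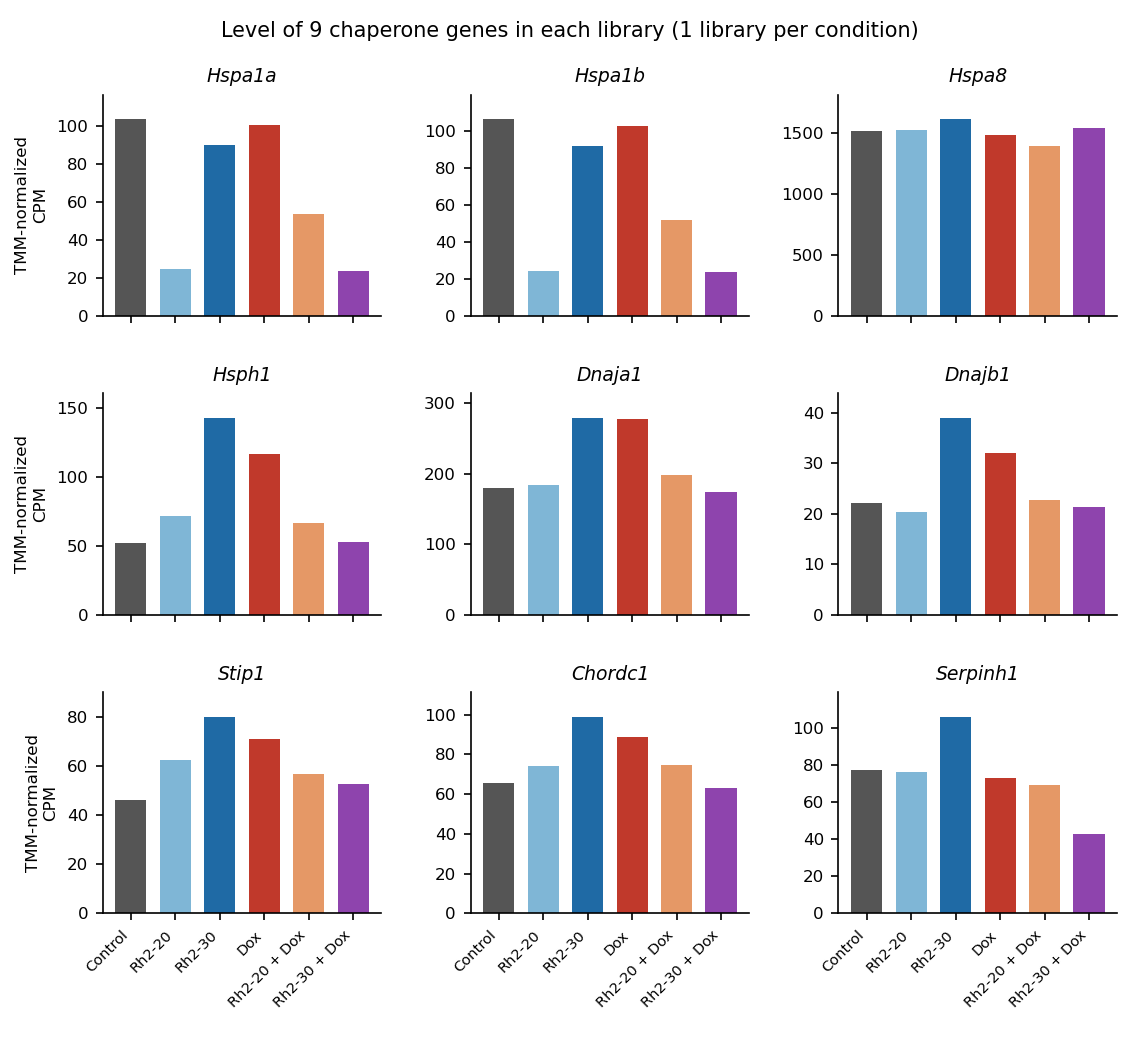
TMM-normalized counts scaled to a common library size (CPM) of 9 genes, 1 bar for each of the 6 libraries, each with an axis that starts at 0. Hspa1a and Hspa1b are low in Rh2-20 and Rh2-30 + Dox, Hspa8 is near level, and Hsph1, Dnaja1, Dnajb1, Stip1 and Chordc1 are highest in Rh2-30 and Dox.

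Dnaja1 and Dnajb1, J-domain proteins that hand clients to HSP70, were also highest in Rh2-30 and Dox, over a smaller range. Dnaja1, the J-domain gene with the highest FPKM, was at 179.5 CPM in Control, 184 in Rh2-20, 279 in Rh2-30, 277 in Dox, 198 in Rh2-20 + Dox and 174 in Rh2-30 + Dox. The Rh2-30 and Dox values of Dnaja1 were nearly the same, at a log2 difference from Control of 0.64 and 0.63, and the other 3 treated libraries lay within 0.14 of Control. Dnajb1 ranged from 20.4 CPM in Rh2-20 to 39.0 in Rh2-30, with 32.1 in Dox. Stip1, the adaptor HOP that passes clients from HSP70 to HSP90, was at 46.3 CPM in Control, 62.6 in Rh2-20, 80.2 in Rh2-30, 71.1 in Dox, 57.0 in Rh2-20 + Dox and 52.8 in Rh2-30 + Dox, so that Control was its lowest library. Chordc1, an HSP90-binding co-chaperone, was at 65.4 in Control, 74.0 in Rh2-20, 98.9 in Rh2-30, 88.7 in Dox, 74.6 in Rh2-20 + Dox and 63.2 in Rh2-30 + Dox. The white fat markers were likewise highest in Rh2-30 and Dox (193 and 35.5 CPM), and their part in this order was not tested. Hspa1a and Hspa1b, whose promoters carry a heat shock element too, were near Control in both of those libraries, at log2 values between -0.21 and -0.04.

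The other HSP70 genes spanned 1.16-fold (Hspa8) to 1.62-fold (Hspa12b) from their lowest to their highest library. Hspa8 was at 1515 CPM in Control, 1523 in Rh2-20, 1615 in Rh2-30, 1486 in Dox, 1395 in Rh2-20 + Dox and 1546 in Rh2-30 + Dox, and 91.1% of the genes as abundant had a wider range. Hspa5 (BiP), the luminal HSP70 that sets the unfolded protein response, ran from 240 CPM in Dox to 295 in Rh2-30. Hspa9 (mortalin) ran from 492 in Dox to 765 in Rh2-30 + Dox. Hspa4, an HSP110 protein of the cytosol, was at 194 CPM in Control and 181 in Dox, and at 228 in Rh2-20, 243 in Rh2-30, 209.7 in Rh2-20 + Dox and 234 in Rh2-30 + Dox, so all 4 libraries with Rh2 were above both without. The reverse held for Hspa12a, at 17.2 CPM in Control and 17.4 in Dox against 15.2 in Rh2-20, 13.3 in Rh2-30, 13.7 in Rh2-20 + Dox and 12.5 in Rh2-30 + Dox. Hspa12b, an HSP70 relative known from endothelium, was at 111 in Control, 98.2 in Rh2-20, 68.4 in Rh2-30, 105 in Dox, 95.9 in Rh2-20 + Dox and 92.2 in Rh2-30 + Dox, again with both libraries without Rh2 on top. The endothelial markers (7 genes) summed to 1690 to 2025 CPM and were likewise highest in Control, and their part was not tested. The share of all tested genes that separated by Rh2 in this way is not given here beside Hspa4, Hspa12a and Hspa12b. Hspa2 was at 10.0 in Control, 10.9 in Rh2-20, 11.3 in Rh2-30, 7.09 in Dox, 10.9 in Rh2-20 + Dox and 9.11 in Rh2-30 + Dox, lowest in Dox alone. Of the genes as abundant, 22.3% had a range at least as wide as that of Hspa12b, 24.0% as that of Hspa2 and 26.9% as that of Hspa9.

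In the HSP90 system, 7 of 8 genes were above Control in each of Rh2-20, Rh2-30 and Dox (50.1%, 53.5% and 49.1% of all tested genes were), and 6 of 8 in each Rh2 + Dox library. The class medians were 0.13 in Rh2-20, 0.47 in Rh2-30 and 0.25 in Dox on the log2 scale. The exception was Hsp90aa1 in Rh2-20 and Trap1, the mitochondrial HSP90, in Rh2-30 and Dox. With total counts or FPKM in place of TMM scaling, all 8 were above Control in Rh2-20 and in Rh2-30, where total counts raised every gene by 0.17 in the latter. Hsp90ab1 was steady, at 523 CPM in Control, 550.0 in Rh2-20, 589 in Rh2-30, 535 in Dox, 489 in Rh2-20 + Dox and 526 in Rh2-30 + Dox. Hsp90aa1, the inducible cytosolic form, ranged more, from 124 CPM in Rh2-30 + Dox to 221 in Rh2-30, and its FPKM was 33.0% of that of Hsp90ab1 in Rh2-30 and 20.8% to 28.2% in the other libraries. Ahsa1, which speeds the ATP cycle of HSP90, was at 53.8 CPM in Control, 69.6 in Rh2-20, 80.2 in Rh2-30, 65.9 in Dox, 61.6 in Rh2-20 + Dox and 67.7 in Rh2-30 + Dox. Control was thus the lowest library of Ahsa1, as it was for Stip1 and for Fkbp4 (56.4 CPM against 64.8 to 76.6), the immunophilin FKBP52 of steroid receptor complexes.

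The chaperonin of the mitochondrion, a barrel of HSP60 with a lid of HSP10, was lowest in Dox and highest in Rh2-30. Hspd1 (HSP60) was at 307 CPM in Control, 366 in Rh2-20, 375 in Rh2-30, 284.5 in Dox, 298 in Rh2-20 + Dox and 351.5 in Rh2-30 + Dox. Hspe1 (HSP10) was at 62.7 in Control, 68.1 in Rh2-20, 71.0 in Rh2-30, 49.5 in Dox, 58.9 in Rh2-20 + Dox and 68.5 in Rh2-30 + Dox. At each Dox status the library without Rh2 was the lowest of the 3 for both genes. Exons of the genes overlap on opposite strands at their starts, so reads from that overlap could be counted to either if strand was not used, which is not given in the sources used here. The 8 subunit genes of TRiC, the chaperonin of the cytosol that folds actin and tubulin, were also highest in Rh2-30. Each was above Control in the 4 libraries with Rh2, though Tcp1 and Cct2 by no more than 0.01 in Rh2-20 + Dox, a library in which Hspd1 and Hspe1 were below Control. In Dox alone 6 of the 8 were below Control, the furthest at -0.15, while Cct3 and Cct5 were at 0.24 and 0.08. Cct3 moved furthest, to 0.56 in Rh2-30.

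**Figure D4:**
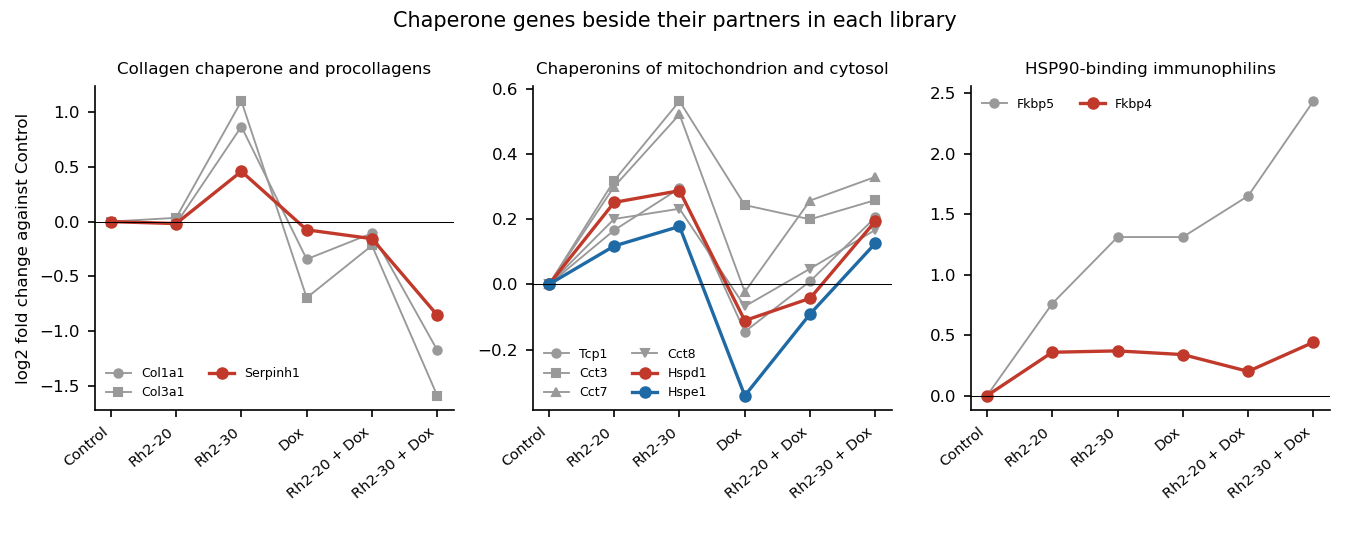
Log2 fold change against Control in each library for members (red, blue) and for partner genes that are not members (grey), with lines that join the values of 1 gene. Serpinh1, Col1a1 and Col3a1 are highest in Rh2-30 and lowest in Rh2-30 + Dox, the chaperonin genes are higher with Rh2 than without at each Dox status apart from Cct3, and Fkbp5 is above Control in all 5 treated libraries.

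The small heat shock proteins of muscle were on the low side in Dox and, for some, in Rh2-30. In Dox, 5 of 6 were below Control, with a class median of -0.25, though Hspb8 (-0.00) turns its sign under other scalings. Hspb1 was the exception, at 123 CPM in Control, 131 in Rh2-20, 133 in Rh2-30, 146 in Dox, 129.9 in Rh2-20 + Dox and 151 in Rh2-30 + Dox. Hspb2, a small heat shock protein of striated muscle, was at 10.9 CPM in Control, 9.61 in Rh2-20, 10.4 in Rh2-30, 6.49 in Dox, 9.66 in Rh2-20 + Dox and 9.71 in Rh2-30 + Dox. Dox alone was low, at a log2 value of -0.76, and the 5 others lay close together. Hspb2 shares exon sequence with Cryab on the other strand, and Cryab was at 0.17 in Dox.

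Hspb6 (HSP20), Hspb7 and Hspb8, the last of which works with BAG3 to clear damaged sarcomere proteins, separated the Rh2-30 libraries with and without Dox. They were singled out after their values were seen. Hspb7 was at 175 CPM in Rh2-30 and 314 in Rh2-30 + Dox, its lowest and highest library, a log2 difference of 0.84. Hspb6 was at 34.6 and 51.1 CPM in the same libraries and Hspb8 at 48.1 and 74.6. The cardiomyocyte marker sum was also lowest in Rh2-30 (85900 CPM) and highest in Rh2-30 + Dox (116100 CPM), and its part was not tested. In Dox, where Hspb6 was lowest (31.1 CPM) and Hspb7 was at 188 CPM, that marker sum was 113600 CPM, close to the 115300 CPM of Control.

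Of the other J-domain genes, Dnaja4, Dnajb4 and Dnajb5 were lower than Control in Dox, by log2 values of -0.31, -0.38 and -0.35. Dnaja4 was at 66.8 CPM in Control, 61.1 in Rh2-20, 65.0 in Rh2-30, 54.0 in Dox, 53.0 in Rh2-20 + Dox and 59.4 in Rh2-30 + Dox, so that the 3 libraries with Dox lay below the 3 without. Dnajb5 was at 45.8 in Control, 46.5 in Rh2-20, 37.3 in Rh2-30, 35.9 in Dox, 34.9 in Rh2-20 + Dox and 39.96 in Rh2-30 + Dox, and there the groups overlapped. Dnajb9 (ERdj4), the J-domain partner of BiP, ran from 27.7 CPM in Control to 38.5 in Rh2-30. Bag3, which joins HSP70 to small heat shock proteins, ran from 69.3 CPM in Rh2-20 + Dox to 99.4 in Rh2-30 + Dox. The factor that drives the inducible genes, Hsf1, was at 51.6 CPM in Control, 51.0 in Rh2-20, 41.9 in Rh2-30, 59.3 in Dox, 50.8 in Rh2-20 + Dox and 56.2 in Rh2-30 + Dox, and Hsf2 ran from 32.5 in Rh2-30 to 39.3 in Rh2-30 + Dox. Hsf1 is regulated mainly as a protein, by binding to chaperones, trimer formation and phosphorylation, which RNA counts do not measure. Its RNA was lowest in Rh2-30 and highest in Dox, and Hsph1, Dnaja1 and Dnajb1 were high in both of those libraries.

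Serpinh1 (HSP47), the chaperone of procollagen in the endoplasmic reticulum, was at 77.3 CPM in Control, 76.4 in Rh2-20, 106 in Rh2-30, 73.5 in Dox, 69.5 in Rh2-20 + Dox and 42.8 in Rh2-30 + Dox. From Rh2-30 to Rh2-30 + Dox it was lower by a log2 value of -1.31 (-1.37 to -1.26), and the other 4 libraries lay close together. Of the 6 procollagen genes listed, 4 (Col1a1, Col1a2, Col3a1 and Col5a1) were likewise highest in Rh2-30 and lowest in Rh2-30 + Dox. Col3a1 was at log2 values of 1.10 in Rh2-30 and -1.59 in Rh2-30 + Dox against Control, and Col1a1 at 0.87 and -1.17. Col4a1 and Col4a2, chains of basement membrane collagen, were lowest in Dox, at -0.77 and -0.95, and Col4a2 was highest in Control. Fibroblast markers (5 genes) summed to 930 CPM in Rh2-30, 659 in Rh2-30 + Dox and 658 in Control. Their sum was 701 in Rh2-20, 865 in Dox and highest in Rh2-20 + Dox, at 939. Dcn held most of that sum, and it and Pdgfra were highest in Rh2-20 + Dox. Tcf21, Lum and Dpt were each highest in Rh2-30 and lowest in Rh2-30 + Dox, as Serpinh1 was. Macrophage markers (6 genes) summed to 405 in Rh2-30 and 195 in Rh2-30 + Dox, their highest and lowest library. The part of either in the Serpinh1 values was not tested.

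Tests were possible only over several libraries, with edgeR's quasi-likelihood test (two-sided, Benjamini-Hochberg over 18328 genes), and they take libraries of different treatment as replicates of Dox or Rh2 status. With the 3 libraries with Dox set against the 3 without, no member reached an adjusted p of 0.05 (0.0273% of all tested genes did), and 1 member had an unadjusted p under 0.05 (10.1% of all). That was Dnaja4, at a log2 difference of -0.21 ± 0.08 (SE, adjusted p = 0.464 in edgeR). The next lowest p-values belonged to Serpinh1 at -0.49 ± 0.23, Dnajb5 at -0.23 ± 0.11, Hsf1 at 0.20 ± 0.11 and Hspb1 at 0.14 ± 0.09. Without the Rh2-30 library these were at -0.19 for Dnaja4, -0.30 for Serpinh1, -0.31 for Dnajb5, 0.125 for Hsf1 and 0.18 for Hspb1, and Hsph1 was at 0.36 in place of -0.17. Serpinh1 was at -0.28 without Rh2-30 + Dox. The libraries with Dox did not overlap those without in 3 members, Hspa5, Dnaja4 and Serpinh1, all lower with Dox (17.0% of all tested genes did not overlap). The inducible pair could not be placed by this contrast, with Hspa1a at -0.29 ± 0.63 and Hspa1b at -0.32 ± 0.65. DESeq2's Wald test also gave no member an adjusted p under 0.05, and 2 an unadjusted p under 0.05. The share of all tested genes at that unadjusted p with DESeq2 is not given here.

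**Figure D5:**
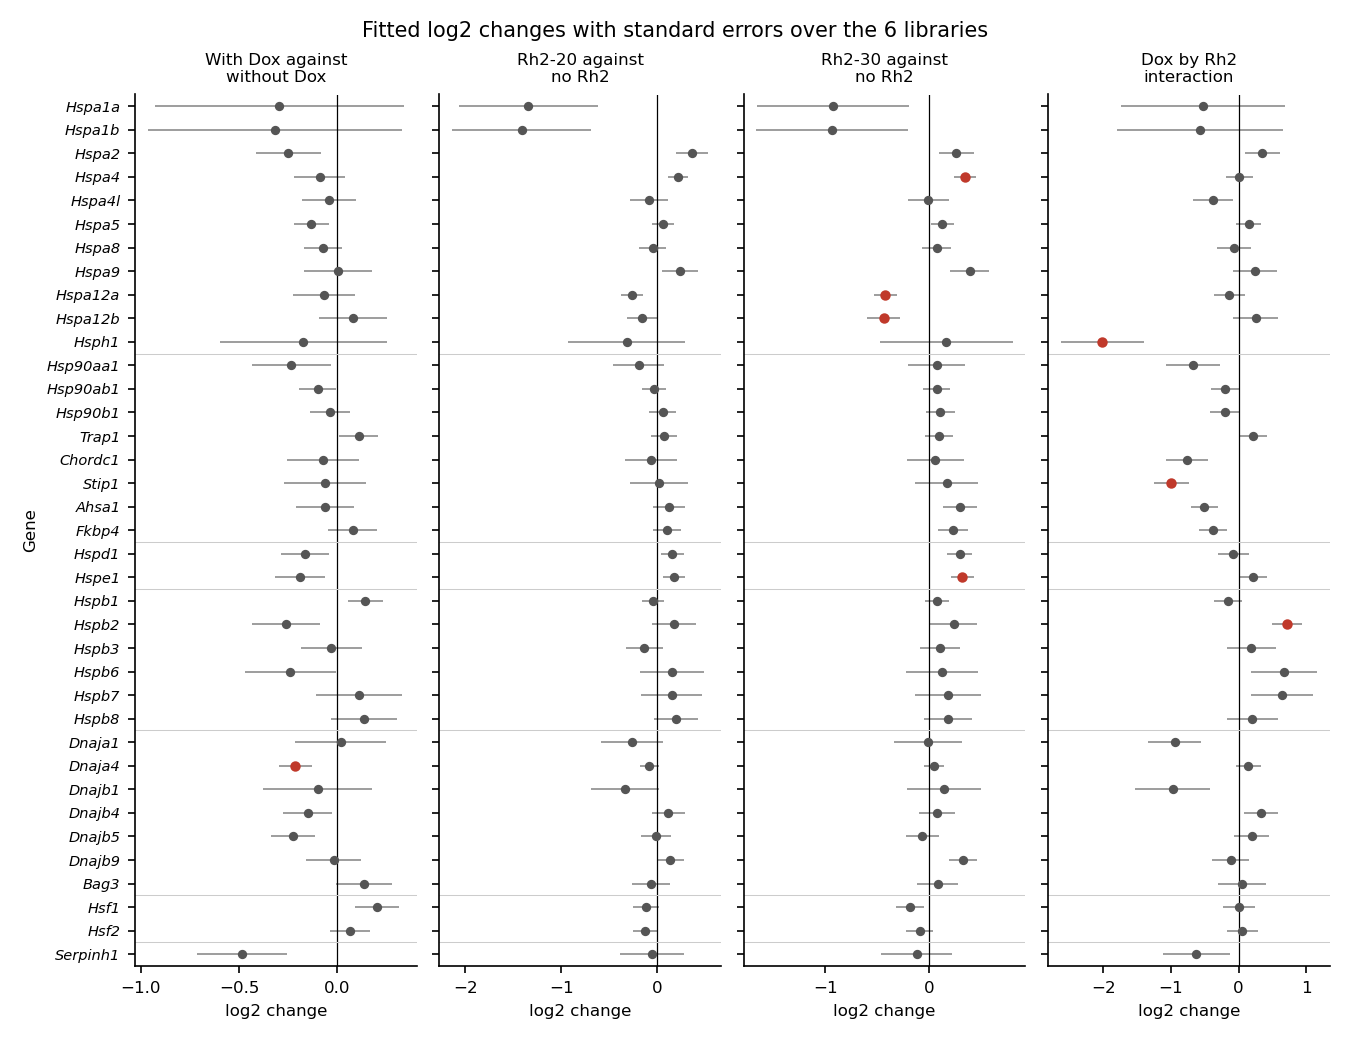
Fitted log2 change (point) and standard error (bar) of each of the 37 genes in the 4 contrasts over the 6 libraries, with red points where the unadjusted p was under 0.05 and a separate scale in each panel. Red points are Dnaja4 for Dox, Hspa4, Hspa12a, Hspa12b and Hspe1 for Rh2-30, and Hsph1, Stip1 and Hspb2 for the interaction, and none of them passed the adjustment.

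For Rh2, with Dox as a term and 2 residual degrees of freedom, no member passed the adjusted threshold at either dose (0% of all tested genes at each dose). At Rh2-20 no member had an unadjusted p under 0.05 (3.14% of all), the lowest being Hspa12a at -0.26 ± 0.11, and Hspa1b stood at -1.41 ± 0.73. That value was -0.60 without the Rh2-20 library and -2.69 without Rh2-20 + Dox, and with any 1 library left out its adjusted p was at least 0.0694 in edgeR. At Rh2-30 there were 4 (7.29% of all), Hspa12a at -0.42 ± 0.11, Hspa4 at 0.35 ± 0.10, Hspe1 at 0.32 ± 0.11 and Hspa12b at -0.44 ± 0.16, each with an adjusted p of 0.682 in edgeR. Hspd1 followed at 0.30 ± 0.12. All 8 genes of the HSP90 system and all 6 small heat shock proteins had a positive Rh2-30 value. The medians were 0.10 and 0.15, beside 0.02 for all 18328 tested genes, of which 9552 were positive. With a library left out, 4 to 8 of the HSP90 genes and 3 to 6 of the small heat shock proteins had a positive value. The Rh2-30 results rest on a pair of libraries that differed from each other. Without the Rh2-30 library, 8 members passed the adjusted threshold and 1380 genes in all, and without Rh2-30 + Dox 7 members and 1450 genes did, each time from a fit in which a lone Rh2-30 sample was assumed to vary like the other groups. Hspa1a and Hspa1b, at -0.92 and -0.93 with all libraries, were at -2.38 and -2.39 in the first of these fits (adjusted p = 0.0161 and 0.0156 in edgeR) and at 0.05 each in the second. Hspa9 was at 0.675 in the first and 0.12 in the second. Serpinh1 was at -0.74 in the first of these fits and 0.44 in the second, Hspb6 at 0.72 and -0.52, and Hspb7 at 0.74 and -0.41, so the sign of these 3 genes depended on which library was kept. Among the 4 genes with an unadjusted p under 0.05, Hspa4 was at 0.40 (adjusted p = 0.0434) in the first and 0.32 (adjusted p = 0.0819) in the second. Hspa12b was at -0.18 (adjusted p = 0.313) in the first and -0.69 (adjusted p = 0.0122) in the second, Hspe1 at 0.46 and 0.21, and Hspa12a at -0.41 in both.

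The interaction term asks whether the Dox difference without Rh2 was another one with Rh2, with both doses as 1 group. No member had an adjusted p under 0.05 (0% of all tested genes), and 3 had an unadjusted p under 0.05 (2.71% of all). Stip1 was at -0.997 ± 0.26 (SE), Hsph1 at -2.01 ± 0.61 and Hspb2 at 0.71 ± 0.22, each with an adjusted p of 0.988 in edgeR, and Chordc1 at -0.77 ± 0.31 and Ahsa1 at -0.50 ± 0.20 came next. For Stip1 and Hsph1 the negative sign means that Dox stood above Control while the libraries with Rh2 and Dox stood below those with Rh2 alone. For Hspb2 Dox stood below Control, and with Rh2 the libraries with and without Dox were close. The Control and Dox libraries enter this term singly, so the spread it uses comes from the Rh2 libraries. DESeq2's Wald test gave no member an adjusted p under 0.05 in either Rh2 contrast or in the interaction. With a library left out, the number of members at an unadjusted p under 0.05 differed, as given below. Without the Rh2-30 library, Stip1 was at -0.81, Hsph1 at -1.435, Hspb2 at 0.76, Chordc1 at -0.55 and Ahsa1 at -0.40, and Hspa1a went from -0.53 to 0.69.

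Genes of the wider chaperone network that are not members gave 0 calls at an adjusted p of 0.05 in each contrast. Against Control, the largest difference among them was in Fkbp5, the immunophilin FKBP51 that is a well-known target of glucocorticoid receptors and works against FKBP52 on HSP90. Fkbp5 had 1730 counts in Control, 3171 in Rh2-20, 4889 in Rh2-30, 4333 in Dox, 5981 in Rh2-20 + Dox and 9770 in Rh2-30 + Dox. It was above Control in all 5 treated libraries, by log2 values of 0.76 to 2.44, and highest at each Dox status in the library with more Rh2. Its unadjusted p was under 0.05 for Dox and for both Rh2 doses, but the edgeR adjusted p was 0.422 for Dox, 0.682 for Rh2-30 and 1 for Rh2-20. Of the other 13 HSP90 co-chaperone genes of that list, 0 had an unadjusted p under 0.05 for either Rh2 dose and 2 for Dox, Cdc37l1 and Unc45a, both higher.

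An unadjusted p under 0.05 was found in 7.29% of all tested genes for Rh2-30 and in 10.1% for Dox (4.20% higher and 5.91% lower), and the counts that follow stand beside those shares. Of the 8 TRiC genes, 5 had an unadjusted p under 0.05 for Rh2-30, all higher, led by Cct7 at 0.44 ± 0.10 (adjusted p = 0.682 in edgeR), and the median of the 8 was 0.30. Of the 6 prefoldin genes, whose product hands chains to TRiC, 2 did, both higher, and Pfdn6 moved furthest from Control, by 0.72 in Rh2-30 + Dox. Of 20 genes of endoplasmic reticulum folding and the unfolded protein response, 2 were higher for Rh2-30 and 2 lower for Dox by that measure, and Sdf2l1 was the gene furthest from Control, at 1.39 in Rh2-20 + Dox on 249 counts against 86. Of 14 procollagen and collagen enzyme genes, 6 were lower and 2 higher for Dox before adjustment. Of 20 further HSP70 and J-domain genes, 2 were lower for Dox, and Bag2 was at -1.12 in the Dox library against Control. Of 10 mitochondrial partners and proteases, 1 was higher for Dox, and Grpel1, the exchange factor of mortalin, was at 0.61 in Rh2-30 + Dox. Of the 3 tested HSF family genes none had an unadjusted p under 0.05 in any contrast, with Hsf5 at 1.83 in Dox on 127 counts against 35. Hsf3 was under the count minimum. Of 2 tested small heat shock relatives, Hspb11 was lower for Dox (-0.59, adjusted p = 0.382 in edgeR), and Cryaa and Hspb9 were under the minimum. Among 5 other heat shock inducible genes none had an unadjusted p under 0.05 for Dox, and Hmox1, heme oxygenase 1, moved furthest, to 0.78 in Rh2-30.

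Groups from outside the chaperone network were read beside the heat shock genes. Of 17 immediate early genes, 8 were lower and 1 higher with Dox before adjustment (5.91% and 4.20% of all tested genes), with a median of -0.70, and Egr3 had 318 counts in Control, 116 in Rh2-20, 384 in Rh2-30, 143 in Dox, 117 in Rh2-20 + Dox and 42 in Rh2-30 + Dox. Rh2-30 + Dox, where Egr3 was lowest, was also the lowest library of Hspa1a, and of Fosb, Junb, Egr1, Egr2 and Atf3. Fos, Nr4a1, Zfp36, Btg2 and Myc were lowest in Dox, where Hspa1a was near Control. The remaining genes of the list were lowest in other libraries. Of 16 clock genes, 2 were higher and 1 lower with Dox, and Per2 was at 0.70 (adjusted p = 0.149 in edgeR). Cirbp, an RNA-binding protein induced by mild cold, was at 0.49 with Dox (adjusted p = 0.415 in edgeR) and was highest in Rh2-30 + Dox. The part of these groups in the values of the heat shock genes was not tested.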

How the data were processed

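RNA of 6 heart libraries was captured with SureSelect probes and sequenced. Per the labels and the submitters' processing notes, the authors used bcl2fastq 2.20.0, Trimmomatic, HISAT2 2.1.0 and StringTie 2.1.3b on mm10. The deposited count values were whole numbers per gene, not normalized, and the deposited FPKM and TPM values were scaled per transcript length by the authors with StringTie. How StringTie abundances became counts is not given in the sources used here.

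Genes that averaged 10 or more counts over the libraries went into edgeR 4.0.16 in R 4.3.3 (TMM, quasi-likelihood test). Single libraries were compared by log2 fold changes with a prior count of 0.5 and exact conditional binomial intervals, with no test in the main results. edgeR's exact test with the common dispersion was added only as an alternative. The common dispersion was estimated over the 6 libraries as 1 group, so it also holds differences between treatments. Alternatives used DESeq2 1.42.0, limma 3.58.1 on log2(FPKM + 1) or log2(FPKM + 0.1), other scalings, a prior count of 2, a fold of 1.5 and each library left out in turn. TPM served as an alternative for levels. Steps were tested on simulated data. Positions came from RefSeq GRCm38.p6 and exon overlaps from GENCODE vM21. Python 3.11.15 and matplotlib 3.10.9 made the figures.

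Every member may be named. Values in each library are given for members past a fold of 2 against Control, among the 5 lowest p-values of a contrast, highest in FPKM of their class, or on the study's antibody array (Hspb1, Hspd1), with Hspa1a, Hspa1b and Hsf1. Of each network list, up to 3 genes past a fold of 2, or else the gene furthest from Control, are named. The members and lists were chosen with earlier results of these data known.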

Additional observations from a re-analysis of the deposited data

How the results depend on the processing

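None of the members with the 5 lowest p-values of a contrast changed direction under an alternative run for that contrast. Members past a fold of 2 in a single comparison kept their direction in the alternatives for that comparison. Both sets were picked by their values in these same data, so a kept direction was likely beforehand and is no support for them. The fitted values of members past a fold of 2 did not all keep their direction. For Rh2-30, Serpinh1 was at -0.74 without the Rh2-30 library and 0.44 without Rh2-30 + Dox. Hspa1a and Hspa1b changed sign between these fits too. Members near 0 in a single comparison changed direction under other scalings, the furthest being Hsf2 (-0.22 in Rh2-30 against Control). Over all 37 members, signs were also compared with fits that left out a library, a count taken after seeing the data. At least 1 such fit had another sign in 21 members for Dox, 24 for Rh2-20, 23 for Rh2-30 and 10 for the interaction. The number of genes at an adjusted p under 0.05 depended on the tool. For Dox it was 5, against 425 by DESeq2's Wald test, 0 with Rh2 dose as a term, 0 by limma on log2(FPKM + 1), and 0 to 14 with a library left out. For Rh2-20 it was 0, against 24 by DESeq2 and 0 to 41 with a library left out, for Rh2-30 0 against 91 and 0 to 1450, and for the interaction 0 against 38 and 0 to 1. Members at an adjusted p under 0.05 for Rh2-30 were 0 to 8 with a library left out. Members at an unadjusted p under 0.05 were, for Dox, 1 against 0 with DESeq2 size factors, 2 by DESeq2's Wald test, 2 by limma on either FPKM scale and 0 to 2 with a library left out. They were 0 to 7 for Rh2-20 and 0 to 20 for Rh2-30 with a library left out, and for the interaction 5 by DESeq2 and 2 to 7 with a library left out, the leave-outs of that term being chosen after seeing the data. The share of all tested genes at an unadjusted p under 0.05 in these alternative fits is not given here. These counts of members at an unadjusted p therefore have no background beside them. The cause of the differences between fits was not tested.

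With a fold of 1.5 in place of 2, Rh2-30 had 6 members past it against Control, Dox 5 and Rh2-20 + Dox 2. Against Dox, Rh2-20 + Dox had 4 and Rh2-30 + Dox 9, and against Rh2-30, Rh2-30 + Dox had 11. The share of all tested genes past 1.5 is not given here, so these counts have no background beside them. Adding edgeR's exact test with the common dispersion left 0 in Dox and in Rh2-20 + Dox against Control and 0 in Rh2-20 + Dox against Rh2-20. Total counts, log2(FPKM + 1) and log2(FPKM + 0.1) gave 0 in Rh2-20 + Dox against Control, and log2(FPKM + 1) gave 1 in Rh2-20 + Dox against Rh2-20. The libraries with and without Dox did not overlap in 5 members by FPKM, a check chosen after seeing the data. The share of all tested genes by that measure is not given here. For Rh2-30, Hspa4 ran from 0.32 to 0.40 and Hspa12b from -0.69 to -0.18 with a library left out. Rh2 dose as a term sets each library with Dox against the one without at the same dose, and it left Dnaja4 at -0.21. The spread between hearts was not measured, and genes with few counts, such as Hsf5 and Sdf2l1, carry counting error as well.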
